A study of Mus musculus with 34 samples.

Results

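Loss of p107 was read over all genetic backgrounds of a mouse fetal liver series, from the 18 arrays whose genotype includes loss of p107 against the 16 that carry it, 34 arrays in all. The members were chosen by the genotype in the sample labels, and no measured value entered that choice. Each array holds total RNA from freshly isolated, unfractionated and untreated fetal liver. By the sample labels the age was embryonic day 14.5, while the series text gives a span of a day that ends there. The p107-deficient arrays were 1 p107 KO (loss of p107 alone), 6 p107;p130 DKO (both p107 and p130 lost), 5 Rb1;p107 DKO (both Rb1 and p107 lost) and 6 Rb1;p107;p130 TKO (all of Rb1, p107 and p130 lost). The p107-carrying arrays were 2 wild type, 3 p130 KO, 2 Rb1 KO and 9 Rb1;p130 DKO. Each p107-deficient genotype thus had a counterpart whose label differed only in p107, which gives 4 backgrounds that share no array. The labels state neither the design of the knockout alleles, nor a promoter that drives a recombinase, nor the mouse strain, nor whether arrays come from separate animals. The p-values below therefore measure the spread between these samples, which may be partly technical.

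The pocket proteins, which are Rb1, p107 encoded by Rbl1 and p130 encoded by Rbl2, bind E2F transcription factors and hold back genes for DNA replication and division. p107 and p130 associate mainly with the repressor factors E2F4 and E2F5 and, with the MuvB proteins, form the DREAM complex, which sits on promoters with E2F sites and on cell-cycle homology (CHR) elements of G2 and mitosis genes. Rbl1 is itself transcribed under E2F control and is most abundant in cycling cells. Fetal liver at this stage is the main site of red cell formation, and the maturing red cells share the organ with hepatoblasts, macrophages, megakaryocytes, stellate cells and vessels.

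Signals are linear MAS5 values per probe set, and a gene is given by its brightest probe set. Changes are differences on the log2(signal + 32) scale, p107 lost minus p107 carried, from a limma fit with terms for loss of Rb1, of p107 and of p130, so that a low gene's change is understated. Calls required an adjusted p (Benjamini-Hochberg, over all 12719 genes tested) under 0.05, and every adjusted p below comes from a limma fit of this kind. Median signals of the arrays lay between 80.6 and 115.9. The defining markers of the liver were present, with a summed signal of 6 hepatocyte markers from 118442 to 200326 without p107 and from 121008 to 193468 with it, and of 3 erythroid markers from 47539 to 77892 and from 47366 to 82338. The arrays fell into 3 groups by the relative signal of probe sets that share a gene, a split inferred from the signals and not a recorded batch. The first array group held 5 arrays without and 10 with p107, the second 9 and 1, and the third 4 and 5. Values within an array group come from a fit of its arrays alone, so that the second rests on a single carrier, and the third, where the p130 term could not be fitted, on 9 arrays in all. Adjusted p-values said to be with the block come from a fit that adds array group to the terms. Xist marked 8 of the 18 arrays without p107 and 9 of the 16 with it, and the rest carried Y-linked signal. In whole tissue, fewer cells of a type and less RNA per cell cannot be told apart.

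Rbl1, the targeted gene, is given first because it checks the p107 part of the labels. Its signal ran from 1185 to 2713 with a median of 1599 on the 16 arrays that carry p107, and from 43.9 to 139.4 with a median of 70.1 on the 18 that lack it. The groups did not overlap, and each of the 34 arrays matched its label for p107. This does not check the parts of the labels for Rb1 and p130. Rbl1 fell 16.03-fold, by a log2 change of -4.00 ± 0.12 SE (adjusted p = 1.43e-25, and -4.03 with array group as a block), and it was the 1 gene of those tested whose groups did not overlap (0.00786%). A second probe set fell by 2.38 on the log2 scale, from a median of 260.1 with p107 to 34.6 without it. The other 2 were dim, with medians of 61.9 and 24.3 for the third and 21.2 and 21.9 for the fourth. Among carriers Rbl1 was 1407 ± 266 in wild type (SD, n = 2), 1382 ± 278 in Rb1 KO (n = 2) and 1535 ± 409 in p130 KO (n = 3). Arrays lacking both Rb1 and p130 had 2078 ± 577 (n = 9), and within them it ran from 1306 to 2713.

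The promoter of Rbl1 is shown because it holds a textbook E2F word and belongs to the targeted gene. The sequence is RefSeq's for GRCm38.p6, chr2:157204485-157204784 on the minus strand, printed 5′ to 3′ from 250 bases before the start of transcription to 50 after it. Capitals mark the E2F match, bases 233 to 240.
Rbl1: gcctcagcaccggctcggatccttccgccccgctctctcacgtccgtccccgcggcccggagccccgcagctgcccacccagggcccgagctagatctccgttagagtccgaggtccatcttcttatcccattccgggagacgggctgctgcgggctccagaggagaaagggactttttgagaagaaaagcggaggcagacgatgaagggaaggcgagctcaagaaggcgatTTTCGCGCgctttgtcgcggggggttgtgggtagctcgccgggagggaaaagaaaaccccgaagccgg

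Without p107, 148 of 12719 genes were called (1.16%), 53 higher (0.417%) and 95 lower (0.747%), and 2166 had an unadjusted p under 0.05. The changes were small. 5 called genes changed at least 2-fold, which were Rbl1, Serinc3 and Naaladl1 lower and Sdc4 and Gm16316 higher, while 101 of the 148 moved by less than 0.5 on the log2 scale. The median change of all genes tested was -0.003. With array group as a block 85 genes were called (0.668%), 42 higher and 43 lower, and 36 were called both ways, 16 higher and 20 lower. All 148 kept their sign with the block, a fit of the same arrays that chose the calls. In the single backgrounds, whose arrays also chose the calls, 139 of the 148 kept their sign in each of the 4. Leaving out any 1 array gave 73 to 336 calls, with the fewest without wild type array 1 and the most without Rb1 and p130 double knockout array 9, and 57 of the 148 were called in each of those fits. Without a whole background 20 to 77 genes were called.

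**Figure D1:**
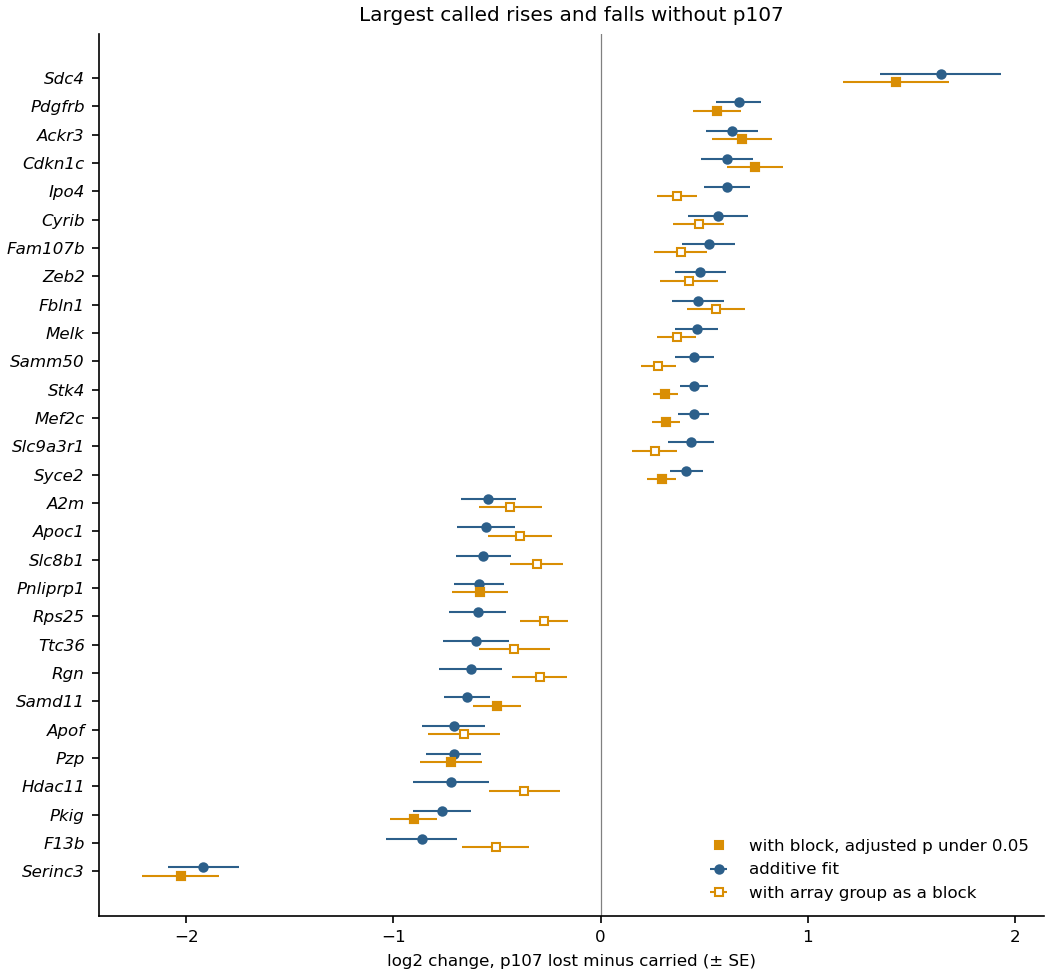
Log2 change (p107 lost minus carried, ± SE) of the called genes with the largest rises and falls and a mean log2 signal of at least 8, Rbl1 left out, in the additive fit (circles) and with array group as a block (squares, filled where called). Every gene keeps its direction with the block, and Serinc3 and Sdc4 lie far beyond the rest at -1.92 and 1.64.

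Cyclin E1 was the cell-cycle gene that fell most clearly. Ccne1, which encodes the cyclin that activates Cdk2 at the entry to S phase and is a classical E2F target, had a signal from 2981 to 4192 with a median of 3602 on arrays with p107, and from 2298 to 3085 with a median of 2729 on arrays without it. The groups touched only at the edge, where the lowest carriers (Rb1 KO array 2 at 2981 and wild type array 2 at 3027) met the highest p107-deficient arrays, and each of the 18 lay below the carriers' mean. Ccne1 fell 1.31-fold (-0.39 ± 0.06 SE, adjusted p = 9.03e-05), was called in each of the 34 fits that leave out an array, and fell with the array group block (-0.37, adjusted p = 0.00119). With p130 absent its signal was 2620 ± 254 without p107 (SD, n = 6) against 3504 ± 523 with it (n = 3). With Rb1 and p130 absent it was 2678 ± 239 (n = 6) against 3693 ± 272 (n = 9), and with Rb1 absent 2894 ± 257 (n = 5) against 3586 ± 857 (n = 2). The p107 KO array had 2756 against 3331 ± 430 in wild type (n = 2). Ccne1 was thus lower without p107 in each of the 4 backgrounds. A second Ccne1 probe set moved the same way by -0.52 but with a wider spread, from 1436 to 7364 without p107. Loss of Rb1 left Ccne1 at a change of 0.08 (adjusted p = 0.684).

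**Figure D2:**
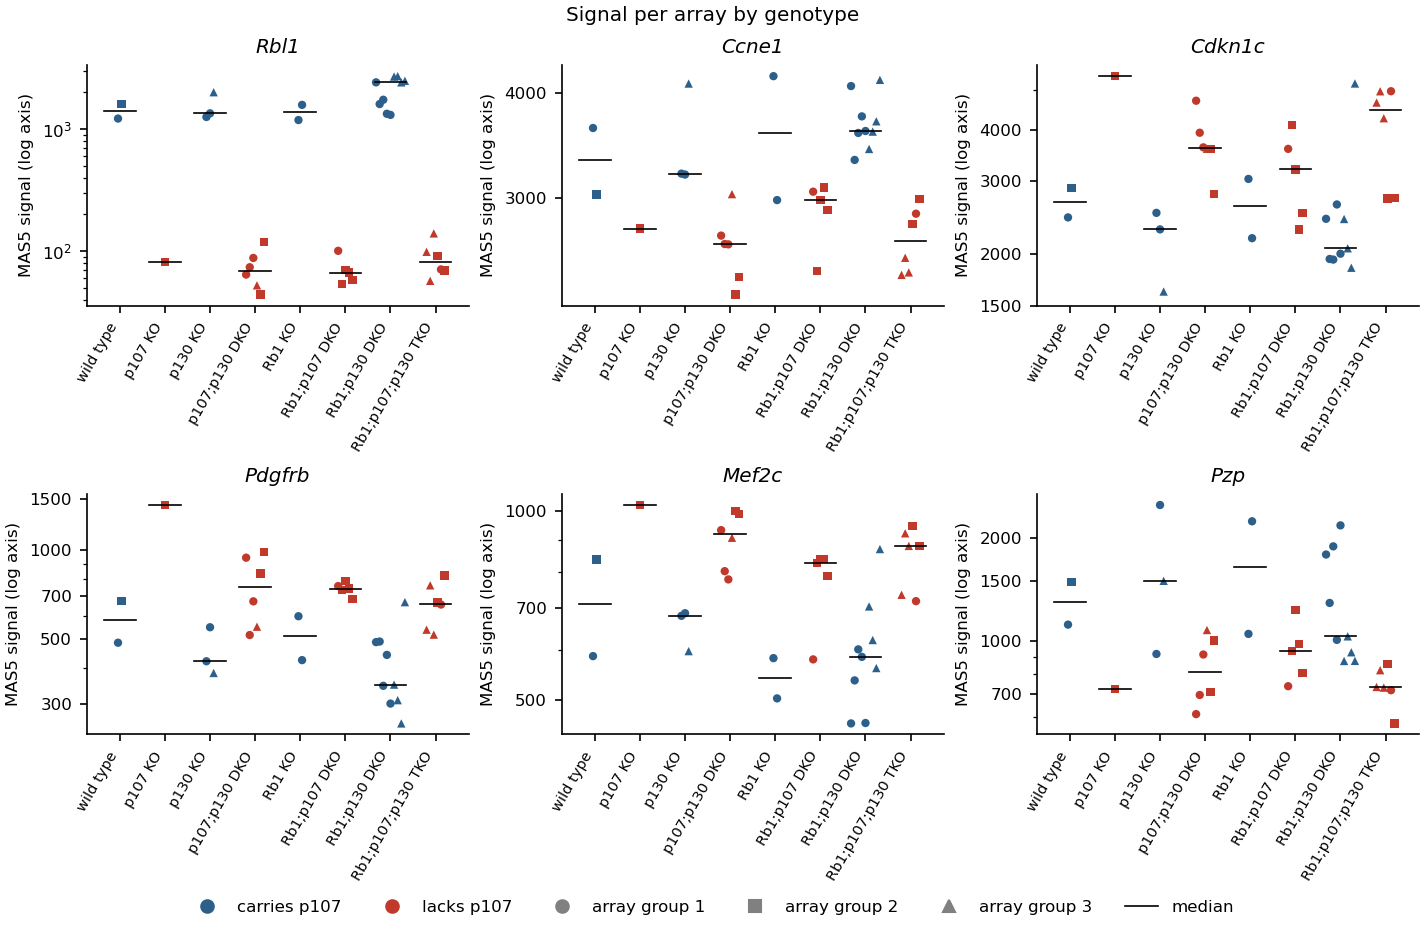
MAS5 signal (log axis) on each array by genotype for Rbl1, Ccne1, Cdkn1c, Pdgfrb, Mef2c and Pzp, with blue for arrays that carry p107, red for arrays that lack it, the symbol for the array group and a bar for the median. Rbl1 separates completely, and for Ccne1 the 18 red points all lie at or below 3085 while the blue points begin at 2981.

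The other called member of the S-phase and E2F target list was Mybl2 (B-Myb), a MuvB partner that takes over from DREAM in S phase and whose gene lies 5.91 Mb from Rbl1. Its signal ran from 1791 to 3393 with a median of 2249 with p107 and from 1333 to 2256 with a median of 1655 without it, overlapping in the middle. Mybl2 fell by 0.39 on the log2 scale (-0.39 ± 0.08 SE, adjusted p = 0.00792), and by 0.48 with the block (adjusted p = 0.00162). Both Mybl2 probe sets gave about this change (-0.39 and -0.40). No member of the list rose past the threshold. 2 of its 43 tested members were called, both lower, against 1.16% of all genes, while its median was 0.08 against -0.003 for all genes, with 32 members above 0. At an unadjusted p under 0.05 there were 11 members, 9 higher and 2 lower. Of all 12719 genes 2166 were at that level, 1009 of them higher. Pold1 (0.29 ± 0.10, adjusted p = 0.118), the catalytic subunit of DNA polymerase delta, and Mcm5 (0.16 ± 0.06, 0.196), of the replicative helicase, had the next largest statistics. With the array group block the list's median turned to -0.03, and within the 3 array groups it was -0.005, -0.01 and -0.10.

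Genes of G2 and mitosis that DREAM is known to bind were read through a list that does not hold all of them. 0 of the 32 tested members of the G2/M and DREAM target list passed by limma, against 1.16% of all genes. A list of this size would hold few calls at that share. 9 members had an unadjusted p under 0.05, all higher, against 2166 of all 12719 genes, 1009 of them higher. The list's median was 0.11 with 25 members above 0. Cdc20, which activates the anaphase-promoting complex, had the largest statistic (0.23 ± 0.07, adjusted p = 0.0915), with signals from 10486 to 19376 with p107 and 13811 to 19914 without. Kif20a, a kinesin of cytokinesis, was next (0.27 ± 0.09, adjusted p = 0.119). The list's median was -0.008 with the array group block and 0.03, -0.15 and 0.04 within the array groups. Outside the list, Melk, a kinase of dividing cells, rose (0.46 ± 0.10, adjusted p = 0.0157, and 0.0512 with the block), as did Syce2, of the synaptonemal complex that joins chromosomes in meiosis (0.41 ± 0.08, adjusted p = 0.00350, and 0.0434 with the block). The 8 histone genes tested had 0 calls by limma (1.16% of all genes) and 4 unadjusted p under 0.05 (2166 of all 12719 genes). Their median of 0.21 turned to -0.02 with the block.

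E2F words in promoters are given as a description. The 300-base RefSeq windows were searched on both strands for TTTCCCGC, TTTCGCGC, TTTGCCGC and TTTGGCGC (E2F) and for TTTGAA and TTCGAA (CHR). The E2F and CHR words share no bases in the sequences printed, which hold no CHR word. Of 13142 windows of 10281 tested genes, 508 (3.9%) held an E2F word and 1839 a CHR word. Among windows of genes called higher, 4 of 55 (7.3%) held an E2F word and 12 (21.8%) a CHR word. Among windows of genes called lower, 1 of 95 (1.1%) held an E2F word, that of Rbl1 itself, and 10 (10.5%) a CHR word. By comparison 35.6% of the 45 windows of the S-phase and E2F target list held an E2F word and 79.3% of the 29 windows of the G2/M list a CHR word. The promoters of Ackr3 and Syce2 are shown because these were called higher with and without the block and hold the word TTTCCCGC or its reverse complement, in capitals. Syce2 has another window, chr8:84871861-84872160, which holds no E2F word and is not printed. The promoter of Ccne1 is shown as the cyclin that fell, and none of these words is in its window.
Ackr3 (chr1:90203730-90204029, plus strand): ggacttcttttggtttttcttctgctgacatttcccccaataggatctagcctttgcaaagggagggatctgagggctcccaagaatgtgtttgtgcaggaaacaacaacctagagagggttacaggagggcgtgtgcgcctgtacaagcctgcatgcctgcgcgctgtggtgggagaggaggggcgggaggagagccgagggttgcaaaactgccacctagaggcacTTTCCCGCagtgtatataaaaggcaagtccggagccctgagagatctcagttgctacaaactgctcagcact
Syce2 (chr8:84872008-84872307, plus strand): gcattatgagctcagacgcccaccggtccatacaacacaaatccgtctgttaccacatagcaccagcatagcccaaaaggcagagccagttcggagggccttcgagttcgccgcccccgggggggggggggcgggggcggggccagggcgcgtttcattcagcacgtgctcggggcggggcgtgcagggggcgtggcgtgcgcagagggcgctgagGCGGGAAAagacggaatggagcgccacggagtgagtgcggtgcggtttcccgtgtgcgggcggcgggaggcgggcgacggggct
Ccne1 (chr7:38107441-38107740, minus strand): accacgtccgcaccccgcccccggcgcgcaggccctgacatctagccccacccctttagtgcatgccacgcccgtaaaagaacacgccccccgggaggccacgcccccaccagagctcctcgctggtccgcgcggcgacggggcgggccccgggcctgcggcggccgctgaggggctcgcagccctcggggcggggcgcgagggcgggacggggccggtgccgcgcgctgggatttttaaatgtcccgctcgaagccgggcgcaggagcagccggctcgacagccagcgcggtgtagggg

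Among cell-cycle regulators the kinase inhibitor Cdkn1c rose. Cdkn1c encodes p57, an imprinted inhibitor of cyclin-dependent kinases that acts in differentiating cells. Its signal ran from 1622 to 5186 with a median of 2364 with p107 and from 2295 to 5406 with a median of 3615 without it. The carriers' high end was a single array, Rb1 and p130 double knockout array 9 at 5186, and the next carrier had 3043. Cdkn1c rose 1.53-fold (0.61 ± 0.13 SE, adjusted p = 0.00812, 17 of 18 arrays above the carriers' mean), and 0.75 with the block (adjusted p = 0.00369). The change was 1.01 between the p107 KO array and wild type, 0.79 with p130 absent, 0.72 with Rb1 and p130 absent and 0.25 with Rb1 absent. It was the 1 member called of the 28 tested on the regulator list (3.57% against 1.16% of all genes), whose median was -0.03 and turned to 0.004 with the block. Ccnd2, the D-type cyclin, had -0.33 ± 0.10 (adjusted p = 0.0895), and Lin54, the DNA-binding subunit of MuvB, had 0.25 ± 0.08 (0.112). The other pocket protein genes did not pass the threshold, with -0.31 ± 0.10 for Rb1 (adjusted p = 0.121) and -0.07 ± 0.11 for Rbl2 (0.760, and a change of 0.09 with the block). By the labels Rb1 and p130 are lost in part of both groups, which the fit carries as its own terms.

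Pdgfrb, Ackr3, Mef2c, Fbln1 and Zeb2 were among the largest rises. Pdgfrb, the PDGF receptor of pericytes and stellate cells, had signals from 258.4 to 675.0 with a median of 432.8 with p107 and from 516.0 to 1427 with a median of 737.9 without it. The p107 KO array was the highest at 1427, the groups overlapped between 516 and 675, and each of the 18 arrays lay above the carriers' mean. Pdgfrb rose 1.59-fold (0.67 ± 0.11 SE, adjusted p = 8.57e-04, and 0.0129 with the block), with 0.59, 0.76 and 0.61 within the array groups. Ackr3, a scavenging receptor for the chemokine CXCL12, went from a median of 253.3 (126.6 to 431.0) to 415.5 (293.1 to 654.7), a rise of 0.64 ± 0.13 (adjusted p = 0.00726, and 0.0144 with the block). Mef2c, a transcription factor of muscle, vessel and blood cells, went from a median of 592.1 (458.0 to 870.0) to 859.7 (579.7 to 1023), a rise of 0.45 ± 0.08 (adjusted p = 0.00141, and 0.0154 with the block). The matrix gene Fbln1 (0.47 ± 0.12, adjusted p = 0.0492) and the transcription factor gene Zeb2 (0.48 ± 0.12, 0.0394) also rose, but not with the block (0.0512 and 0.170). On leaving out single arrays Fbln1 kept its call in 6 of 34 fits and Zeb2 in 19.

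The stellate and mesenchymal list had 1 of 16 tested members called, Pdgfrb (6.25% against 1.16% of all genes), with 14 members above 0 and a median of 0.24 against -0.003 for all genes. Pdgfra (0.53 ± 0.17, adjusted p = 0.105), the matrix proteoglycan gene Bgn (0.40 ± 0.13, 0.107) and the matrix gene Postn (0.35 ± 0.14, 0.185) followed. The median was 0.25 with the array group block and 0.07, 0.59 and 0.47 within the array groups, and by background it was 0.98, 0.34, -0.21 and 0.30 for wild type, p130 absent, Rb1 absent, and Rb1 and p130 absent. The summed signal of 6 markers of these cells was 5551 to 21260 (median 11152) without p107 and 4725 to 19834 (median 8931) with it, so the groups overlapped along nearly their whole range, and the part of the number of such cells in these rises was not tested. The largest rises of other kinds were Ipo4, a nuclear import receptor (0.61 ± 0.11, adjusted p = 0.00297), Cyrib, a Rac1-binding protein (0.57 ± 0.14, 0.0394), Fam107b (0.52 ± 0.13, 0.0333), Samm50, of the mitochondrial outer membrane assembly machinery (0.45 ± 0.09, 0.0102), and Slc9a3r1, a membrane scaffold (0.44 ± 0.11, 0.0416). None of these 5 was called with the block (0.0595, 0.0595, 0.182, 0.137 and 0.297), and Cyrib, Fam107b and Slc9a3r1 kept their calls in 17, 24 and 15 of the 34 fits that leave out an array.

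Pzp, Apof, F13b, A2m, Apoc1, Rgn and Ttc36 were among the largest falls. They are described together by hand and form no list, and of these 7 genes Pzp was called with the block. Pzp, a plasma protease inhibitor, went from a median of 1205 (874.6 to 2497) with p107 to 772.9 (574.7 to 1235) without it. The overlap lay between 875 and 1235, and all 18 arrays were below the carriers' mean. Pzp fell 1.64-fold (-0.71 ± 0.13 SE, adjusted p = 0.00350, and 0.0137 with the block). Apof, an apolipoprotein that regulates lipid transfer, fell by 0.71 from a median of 1299 to 846.7 (-0.71 ± 0.15, adjusted p = 0.0116), and F13b, the carrier subunit of clotting factor XIII, by 0.86 from 441.8 to 248.1 (-0.86 ± 0.17, adjusted p = 0.00726). Neither was called with the block (0.0638 and 0.149), and F13b had 0.18 within the third array group. A2m, a protease inhibitor (-0.54 ± 0.13, adjusted p = 0.0333), the apolipoprotein gene Apoc1 (-0.55 ± 0.14, 0.0431), Rgn, the calcium-binding lactonase regucalcin (-0.63 ± 0.15, 0.0298), and Ttc36 (-0.60 ± 0.16, 0.0492) fell as well and were not called with the block (0.198, 0.267, 0.347 and 0.291). Leaving out single arrays kept these 4 in 24, 16, 28 and 13 of 34 fits.

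The hepatocyte and hepatoblast list had 0 of 22 tested members called by limma, against 1.16% of all genes. It had 3 at an unadjusted p under 0.05, each lower, against 2166 of all 12719 genes, 1157 of them lower. Its median was -0.06 against -0.003, and -0.10 with the block, and within the array groups it was -0.20, -0.36 and 0.31, with the third opposite to the others. Ahsg, the plasma glycoprotein fetuin-A, had -0.37 ± 0.14 (adjusted p = 0.165) and Fgb, the fibrinogen beta chain, -0.28 ± 0.12 (0.223). Albumin was at 0.01 in Alb and alpha-fetoprotein at 0.03 in Afp. The remaining large falls were of mixed kind. Samd11, a nuclear protein gene, fell by 0.65 (-0.65 ± 0.11, adjusted p = 0.00199, and 0.0320 with the block), with a change of -0.01 between the p107 KO array and wild type. Pnliprp1, of the pancreatic lipase family, fell by 0.59 (-0.59 ± 0.12, 0.00812, and 0.0328 with the block). The deacetylase gene Hdac11 (-0.72 ± 0.18, 0.0394), the ribosomal protein gene Rps25 (-0.59 ± 0.14, 0.0248) and Slc8b1, the mitochondrial sodium-calcium exchanger (-0.57 ± 0.13, 0.0253), fell but were not called with the block (0.367, 0.312 and 0.296). Hdac11 kept its call in 17 of 34 fits, Rps25 lost it without wild type array 1 (0.0607), and Slc8b1 without wild type array 1, Rb1 KO array 2 or triple knockout array 4 (0.0531 to 0.0629).

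Of the erythroid maturation list 4 genes fell by small amounts, which were Epor, Ppox, Kel and Slc25a38, while the list as a whole lay on both sides of 0. Epor, the erythropoietin receptor, went from a median of 4343 (2446 to 8058) with p107 to 2909 (2174 to 5829) without it, a fall of 0.43 (-0.43 ± 0.09 SE, adjusted p = 0.0118). The groups overlapped widely, and in the same fit Epor had a change of -0.83 with loss of Rb1 (adjusted p = 1.51e-07). Within each background Epor was lower without p107, at 5044 ± 783 (n = 6) against 6609 ± 1370 (n = 3) with p130 absent and 2558 ± 359 (n = 5) against 4278 ± 520 (n = 2) with Rb1 absent. Ppox, the next-to-last enzyme of heme synthesis, fell by 0.36 from a median of 5544 to 4126 (adjusted p = 0.00446). Kel, which carries the Kell blood group, fell by 0.32 from 12677 to 10230 (adjusted p = 0.00792), and both were below the carriers' mean on 18 of 18 arrays. Slc25a38, the mitochondrial glycine carrier for heme synthesis, fell by 0.26 (-0.26 ± 0.06, adjusted p = 0.0134). These 4 were called in each fit that leaves out 1 array, and none with the array group block (0.112, 0.0760, 0.0899 and 0.103), where they kept changes of -0.26, -0.20, -0.24 and -0.20.

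The erythroid maturation list had 4 of 30 tested members called, each lower (13.3% against 1.16% of all genes), with 13 members above 0 and 17 below, and the heme synthesis and iron list 2 of 21, Ppox and Slc25a38, which are on both lists. The medians were -0.02 and -0.05, against -0.003 for all genes. Within the 3 array groups the erythroid median was -0.15, -0.20 and -0.17, and with the block it was -0.16. In the fit with the block, 0.668% of all genes were called. There 2 other members of the 30, Xpo7 (-0.34, adjusted p = 0.00763) and the transferrin receptor gene Tfrc (-0.26, 0.0154), were called lower. Those 2 genes were at -0.11 and -0.09 without the block (0.546 and 0.556). Leaving out the p130-deficient background, or the Rb1- and p130-deficient one, turned the list's median to 0.007. Embryonic globins had 0 of 3 called by limma (1.16% of all genes), with 1 at an unadjusted p under 0.05 (2166 of all 12719 genes). Hba-x had 0.52 ± 0.16 (adjusted p = 0.104), Hbb-bh1 0.24 ± 0.13 (0.338) and Hbb-y 0.12 ± 0.07 (0.376).

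Genes on chromosome 2 near Rbl1 held the 3 largest changes after Rbl1 itself. Of the 204 tested genes that start within 10 Mb of Rbl1 in RefSeq GRCm38.p6, Rbl1 left out, 12 were called (5.88%), 5 higher and 7 lower, against 135 of the 12514 genes elsewhere (1.08%). Within 5 Mb it was 4 of 106 (3.77%), and within 20 Mb the same count of 12, now of 279 (4.3%). With the array group block 9 of the 204 were called, 3 higher and 6 lower, against 85 of all 12719 genes (0.668%). The median change of the 204 was -0.02, and 0.007 with the block, so the neighbours had no common direction. 6 of the 12 lie between 5.91 and 7.28 Mb from Rbl1, on the same side of it: Mybl2, Serinc3 (6.48), Pkig (6.51), Gm16316 (6.54), Stk4 (6.93) and Sdc4 (7.28). Many genes between them were not called, such as the hepatocyte factor gene Hnf4a at 6.36 Mb (adjusted p = 0.931) and Ada at 6.58 Mb (0.448). Whether loss of p107 itself moved the called neighbours was not tested.

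**Figure D3:**
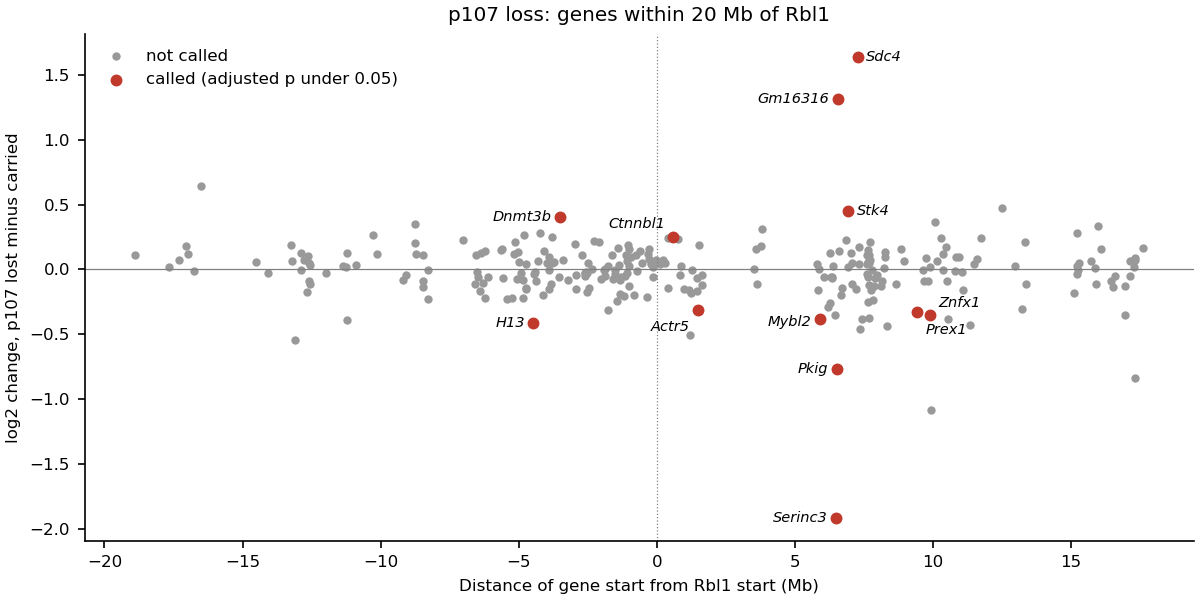
Log2 change (p107 lost minus carried) of each tested gene within 20 Mb of Rbl1 against the distance of its start from that of Rbl1 in Mb, with called genes in red and named. The 5 largest changes among called genes, from -1.92 for Serinc3 to 1.64 for Sdc4, lie between 6.48 and 7.28 Mb on one side.

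Serinc3, a membrane protein gene of the serine incorporator family, showed the largest fall outside Rbl1. Its signal ran from 4736 to 24249 with a median of 19737 with p107 and from 3537 to 17091 with a median of 4545 without it. Serinc3 fell 3.78-fold (-1.92 ± 0.17 SE, adjusted p = 1.68e-09, and 4.27e-09 with the block), and its 6 probe sets fell by 1.92 to 3.90. A single array of each group crossed over. Rb1 and p130 double knockout array 3, which carries p107 by its label and by its Rbl1 signal of 1739, had 4736, while the other 15 carriers had at least 13918. Triple knockout array 1, with an Rbl1 signal of 98.5, had 17091, while the other 17 arrays without p107 had at most 5610. The same 2 arrays crossed over for Pkig, an inhibitor of protein kinase A, with 1577 and 3582, and stood at the ends of their groups for Gm16316 with 332.0 and 129.3.

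Pkig went from a median of 3398 (1577 to 6188) with p107 to 2022 (1653 to 3582) without it, a fall of 0.77 (-0.77 ± 0.14 SE, adjusted p = 0.00297, and 9.29e-06 with the block). Its second probe set fell by 1.33. Stk4, the Hippo pathway kinase Mst1, rose by 0.45 from a median of 2946 (2434 to 4319) to 4234 (3118 to 5046), above the carriers' mean on 18 of 18 arrays (0.45 ± 0.07, adjusted p = 3.06e-04, and 0.00763 with the block). A second Stk4 probe set moved less, by 0.21, and the dimmest, with medians of 123.8 and 130.3, by -0.07. Gm16316, a predicted gene, rose by 1.31 from a median of 129.0 (2.1 to 332.0) to 258.4 (129.3 to 385.9) (1.31 ± 0.27, adjusted p = 0.00788, and 8.64e-04 with the block). Gm16316 is low on the arrays, and its change was 2.04 with a pseudocount of 1 and 0.87 with 100.

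Sdc4, a heparan sulfate proteoglycan of the cell surface, had the largest rise but a split pattern. Its signal ran from 122.7 to 1791 with a median of 804.8 with p107 and from 1148 to 3390 with a median of 1941 without it (1.64 ± 0.29 SE, adjusted p = 0.00243, and 0.00369 with the block). On 6 carriers Sdc4 was low, with 165.1, 141.2, 165.4, 122.7 and 236.8 on Rb1 and p130 double knockout arrays 1, 6, 7, 8 and 9 and 179.4 on p130 KO array 3, and the other 10 carriers had 730 to 1791. On those 6 arrays, in the same order, Gm16316 was 5.1, 44.9, 6.3, 8.1, 53.4 and 2.1, its 6 lowest values. The second Sdc4 probe set moved the other way, by -0.60, from a median of 214.2 to 106.6, and with the mean of both the change was 0.52 and the call was lost (adjusted p = 0.0659). Without the Rb1- and p130-deficient background the call was also lost. Within the array groups the change of Sdc4 was 0.63, 0.74 and 2.81.

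**Figure D4:**
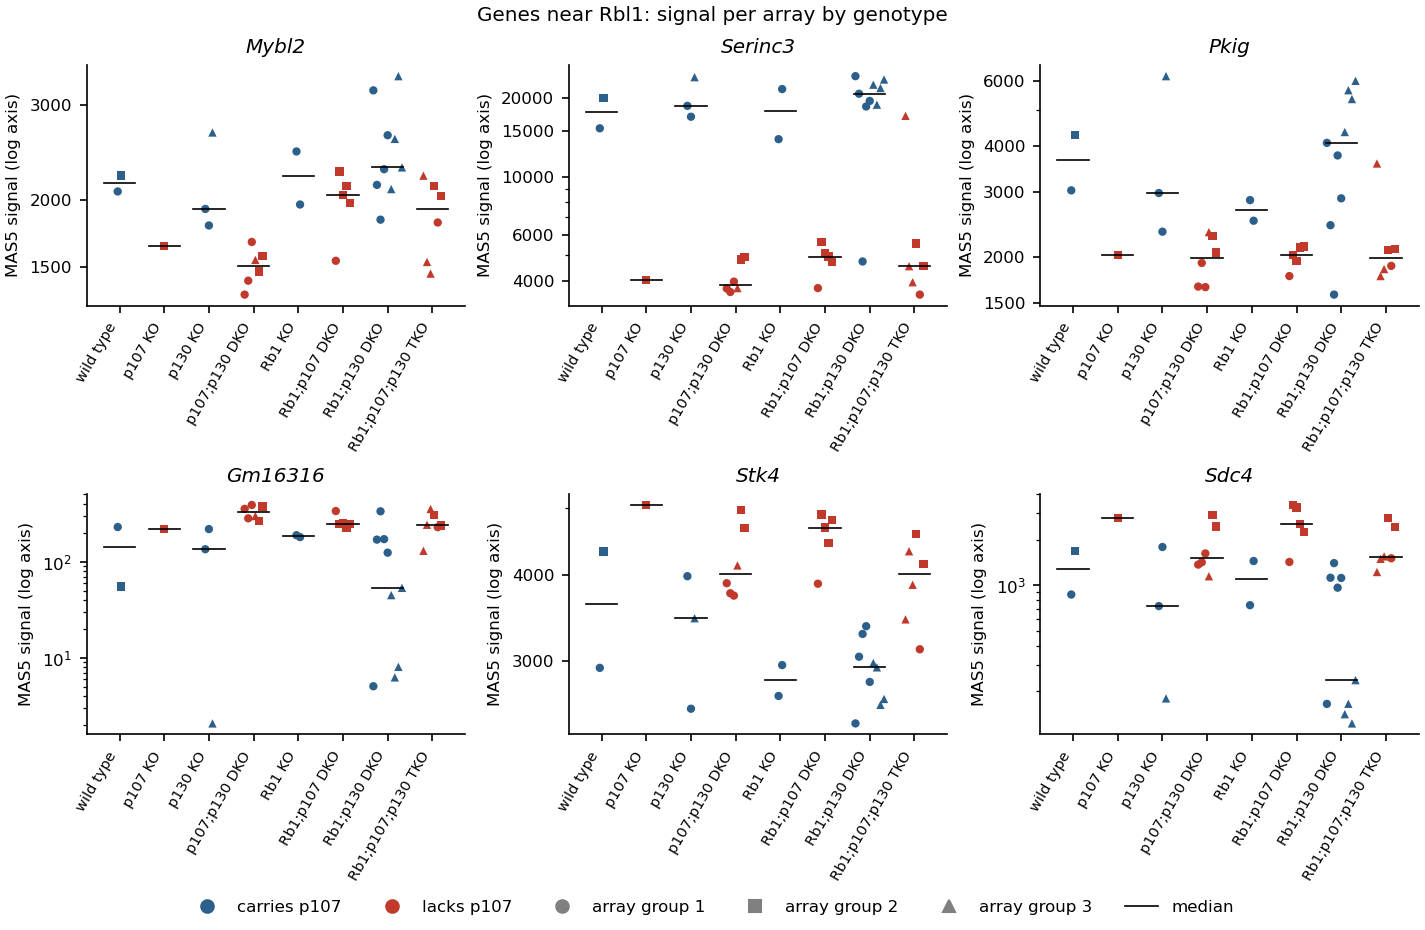
MAS5 signal (log axis) on each array by genotype for 6 called genes that start 5.91 to 7.28 Mb from Rbl1, with blue for arrays that carry p107, red for arrays that lack it, the symbol for the array group and a bar for the median. Serinc3 separates the groups except for 1 blue point at 4736 and 1 red point at 17091, and Sdc4 and Gm16316 are lowest on the same 6 blue arrays.

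The other called neighbours moved less. Dnmt3b, a de novo DNA methyltransferase, rose by 0.41 (adjusted p = 0.0157) and Ctnnbl1, a splicing-associated protein, by 0.25 (0.0364). H13, the signal peptide peptidase, fell by 0.42 (0.0251), Znfx1, an RNA helicase, by 0.35 (0.0303), Prex1, a Rac exchange factor, by 0.33 (0.0281) and Actr5, of the INO80 chromatin remodeller, by 0.32 (0.0251). Of these 6, Prex1 was called with the block (0.0129), and the other 5 had adjusted p from 0.0663 for Dnmt3b to 0.255 for H13. H13 lost its call without Rb1 KO array 2 (0.0539), Actr5 without wild type array 1 (0.0547) and Prex1 without triple knockout array 6 (0.0518), while Znfx1 and Ctnnbl1 kept theirs in 26 and 23 of 34 fits. The next brightest H13 probe set, with medians of 185.5 with p107 and 180.0 without it, moved by -0.06. The dimmer H13 probe sets moved by -0.12 to 0.10. A second probe set of Actr5 moved by -0.13 and that of Dnmt3b by 0.29.

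Markers of other blood and liver cells had no called member, where 1.16% of all genes were called and 2166 of all 12719 had an unadjusted p under 0.05. Lists this short would hold few calls at that share. By limma 0 genes passed of 16 for stem and progenitor cells, 13 for megakaryocytes and platelets, 17 for neutrophils and their granules, 18 for macrophages, 14 for endothelium and 5 for lymphoid cells, with 5, 3, 2, 1, 1 and 3 at an unadjusted p under 0.05. The medians in that order were 0.16, 0.13, -0.19, 0.02, 0.03 and 0.11. Neutrophil and granule genes lay below 0 in 16 of 17 cases, led by the antimicrobial peptide gene Camp (-0.43 ± 0.18, adjusted p = 0.222) and the ficolin gene Fcnb (-0.46 ± 0.21, 0.249), but the list's median was -0.51, 0.12 and 0.17 within the array groups. Stem and progenitor genes lay above 0 in 15 of 16 cases, with Meis1 at 0.33 ± 0.12 (adjusted p = 0.150) and Mecom at 0.53 ± 0.20 (0.175), and the list's median was 0.12, 0.25 and 0.12 within the array groups. Tubb1, the platelet tubulin, had -0.84 ± 0.28 (adjusted p = 0.130). In the remaining lists Csf1r, the macrophage growth factor receptor, had 0.29 ± 0.12 (0.211), Il7r of lymphoid progenitors 0.42 ± 0.12 (0.0793) at signals of 27.4 to 176.9, and the lymphatic and sinusoidal receptor gene Flt4 0.26 ± 0.10 (0.172).

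**Figure D5:**
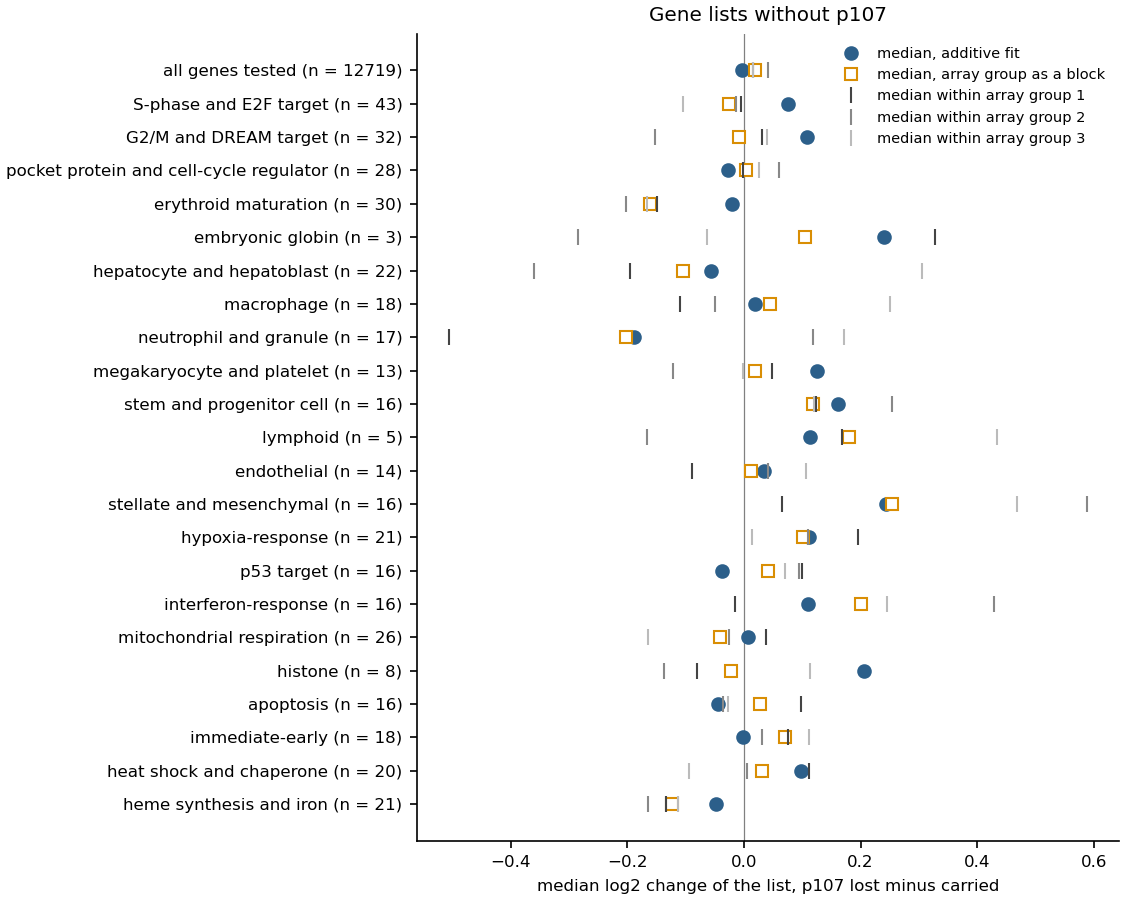
Median log2 change (p107 lost minus carried) of each gene list, with the number of genes tested, in the additive fit (circles), with array group as a block (squares) and within each array group (ticks). The S-phase list moves from 0.08 to -0.03 and the G2/M list from 0.11 to -0.008 with the block, while stellate and mesenchymal genes stay at 0.24 and 0.25.

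Response pathways gave few calls. Of 21 hypoxia-response genes tested 2 were called, both higher (9.52% against 0.417% of all genes called higher), the prolyl hydroxylase gene Egln3 (0.47 ± 0.11, adjusted p = 0.0298) and the hexokinase gene Hk2 (0.36 ± 0.09, 0.0359), and the list's median was 0.11. Neither was called with the block (0.284 and 0.131), and they kept their calls in 27 and 19 of 34 fits. Of 26 genes of mitochondrial respiration Cox6c, a cytochrome oxidase subunit, was called lower (3.85% against 1.16% of all genes). Its change was -0.18 ± 0.05 (adjusted p = 0.0499), it kept the call in 10 of 34 fits that leave out an array, and the call was lost with the block (-0.10, adjusted p = 0.333). The list's median was 0.006 and turned to -0.05 under quantile normalization. The lists of p53 target (median -0.04), interferon-response (0.11), apoptosis (-0.04), immediate-early (-0.002) and heat shock and chaperone genes (0.10) had 0 of 16, 16, 16, 18 and 20 called by limma and 6, 4, 1, 3 and 5 at an unadjusted p under 0.05. Of all 12719 genes 1.16% were called and 2166 had an unadjusted p under 0.05. With the array group block the medians of the p53 target, apoptosis and immediate-early lists changed sign, to 0.04, 0.03 and 0.07. Btg2, an antiproliferative gene that is both a p53 target and immediate-early, came closest (-0.53 ± 0.15, adjusted p = 0.0708), followed by the interferon-induced gene Rtp4 (0.51 ± 0.17, 0.118) and the chaperone gene Hspa4 (0.24 ± 0.09, 0.169).

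The effect of p107 loss was then read within single backgrounds, from genotype means. With Rb1 and p130 absent, the 6 triple knockout arrays differed from the 9 of the Rb1 and p130 double knockout in 3 genes (0.0236%), all lower: Rbl1 (-4.12 ± 0.18 SE), Serinc3 (-1.70 ± 0.27, adjusted p = 0.00304) and Ccne1 (-0.46 ± 0.09, 0.0368). With array group as a block this comparison gave 17 genes, 9 higher and 8 lower, among them these 3. With p130 absent and Rb1 present, 6 arrays against 3 gave 3 genes (0.0236%), Rbl1 (-3.90 ± 0.24), Serinc3 (-2.25 ± 0.37, adjusted p = 0.00376) and the retinol dehydrogenase gene Rdh5 (-1.01 ± 0.19, 0.0243), all lower. Sex nearly coincided with p107 status here, since all 3 p130 KO arrays were marked by Xist and 5 of the 6 arrays without p107 carried Y-linked signal. With sex as a term 1 of these 3 genes was called, and with array group as a block all 3. With Rb1 absent and p130 present, 5 arrays against 2 gave Rbl1 alone (0.00786%, -3.80 ± 0.29). The number of genes at an unadjusted p under 0.05 was 692, 564 and 1505, and 1131, 989 and 414 with array group as a block. With Rb1 absent and p130 present, array group nearly coincided with p107 status. Both Rb1 KO arrays lay in the first array group, and 4 of the 5 Rb1 and p107 double knockout arrays in the second. The counts of called genes were small and moved with single arrays. The first was 8 without Rb1 and p130 double knockout array 9 and 5 without array 7, and the second was 1 without p130 KO array 3. The third was 3 without Rb1 KO array 1, and 2 without Rb1 KO array 2, Rb1 and p107 double knockout array 5 or Rb1 and p130 double knockout array 3. The p107 KO array against the 2 wild type arrays, with no replicate, gave -3.65 for Rbl1, -2.11 for Serinc3, -0.27 for Ccne1, 1.01 for Cdkn1c and 1.27 for Pdgfrb.

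Whether the effect of p107 loss depended on Rb1 or p130 was tested with interaction terms over the 34 arrays. 0 genes were called by limma for p107 by Rb1 and 0 for p107 by p130, with 325 and 381 at an unadjusted p under 0.05. For Ccne1 the interaction was -0.05 with Rb1 and -0.17 with p130, and for Cdkn1c -0.20 and 0.34. A gene called in 1 background and not in another is therefore not shown to differ between them.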

How the data were processed

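The 34 arrays measured total RNA of whole fetal liver with 1 biotin-labelled sample each. The deposited intensity values are linear MAS5 signals made by the authors with GCOS 1.4, per the submitters' processing notes, and their trimmed means (2% from each end) of 495.4 to 497.7 lay near a target of 500. Of 45037 probe sets, 34945 had 1 gene symbol in the platform annotation, 932 several and 9160 none, and only those with 1 symbol were used. Each array was rescaled to a trimmed mean of 500, log2(signal + 32) was taken, and of 18193 genes, each by its brightest probe set, 12719 whose signal reached 100 on 2 or more arrays were tested. The number of arrays limits the precision.

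limma 3.58.1 in R 4.3.3 fitted terms for loss of Rb1, p107 and p130 (eBayes with trend), a fit of genotype means for the single backgrounds, and a fit with interaction terms. p-values were adjusted by Benjamini-Hochberg over all genes tested. The fit was tested on simulated data. Array groups were inferred by clustering arrays on log2 differences between the 2 brightest probe sets of a gene, and sex was read from Xist and Y-linked genes. Distances and promoters come from RefSeq tables of GRCm38.p6. Alternatives covered the pseudocount, filter, scaling, probe set rule, variance model, blocks, sex and arrays or backgrounds left out.

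The comparison, the 22 gene lists and the tests were chosen with earlier results of these data known. The named genes were the pocket proteins, up to 15 rises and 15 falls among called genes whose mean log2 signal reached 8, called genes within 10 Mb of Rbl1, and up to 4 members of each list by test statistic. Naaladl1, Rdh5, Xpo7, Tfrc, Alb, Afp, Hnf4a and Ada were named after their values were seen.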

Additional observations from a re-analysis of the deposited data

Results flagged for a closer look

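Single arrays that stood apart from the others of their genotype were sought for the named genes in the genotypes of 4 or more arrays (Dixon's criterion, about 1 test in 20 by chance). Of 316 tests 29 met it.

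Among the genes near Rbl1, Serinc3 was 4736 on Rb1 and p130 double knockout array 3 against 18563 to 24249 on the others, and 17091 on triple knockout array 1 against 3537 to 5548. Pkig was 3582 on that triple knockout array against 1771 to 2096. Znfx1 was 195.7 on Rb1 and p107 double knockout array 4 against 279.6 to 317.6.

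Array 1 of the Rb1 and p107 double knockout, the 1 array of its genotype in the first array group, stood apart for 7 genes. It was low for Cyrib (3219 against 3718 to 3932), Mef2c (579.7 against 788.9 to 839.3), Slc9a3r1 (2209 against 3948 to 4372), Egln3 (157.1 against 255.1 to 306.2) and H2ax (14776 against 22382 to 24227), and high for Zeb2 (1009 against 597.6 to 688.2) and Rps25 (858.5 against 385.5 to 442.0). Array 2 of that genotype was low for Ccne1 (2452 against 2903 to 3085) and high for Hba-x (29008 against 19876 to 22021) and Ifit3 (212.9 against 88.2 to 114.6).

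In the p107 and p130 double knockout, array 5 was low for Pnliprp1 (263.1 against 378.3 to 444.1), Slc8b1 (67.5 against 190.5 to 306.2) and Cox6c (12410 against 14161 to 15322). Array 4 was low for Cyrib (2111 against 3449 to 4575) and high for Tubb1 (10982 against 1372 to 2141), and array 6 was low for Rtp4 (134.8 against 279.1 to 394.5). In the triple knockout, array 1 was low for Cyrib (2059 against 3120 to 3994) and Zeb2 (350.4 against 460.7 to 510.0), array 3 for Ahsg (3592 against 4833 to 4945) and Macroh2a1 (2358 against 3291 to 3792), and array 5 was high for Pdia3 (6908 against 4283 to 4834).

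In the Rb1 and p130 double knockout, array 9 was high for Cdkn1c (5186 against 1852 to 2638) and Slc9a3r1 (5434 against 1949 to 3220), and array 8 was low for F13b (177.1 against 365.9 to 679.7) and Mrc1 (519.1 against 808.7 to 1254). Without arrays 8 and 9 together 481 genes were called. Whether a property of single arrays moved these values was not tested.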

How the results depend on the processing

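The directions of the called genes were read on the same arrays that chose them and are no independent check. The count of 148 called genes moved with the processing. It was 644 with array weights, 311 with the replicate number as a block (replicate block), 481 without Rb1 and p130 double knockout arrays 8 and 9, 92 as an equal-weight mean over the 4 backgrounds, 85 with array group as a block and 47 when sex was added to that block, a setting chosen after seeing the data. It was 77 without the wild type background, 34 without the Rb1-deficient, 26 without the p130-deficient and 20 without the Rb1- and p130-deficient one, where fewer arrays enter, and 5 when a 2-fold change was needed. The labels do not say whether the replicate numbers pair the samples. Of 67 same-numbered pairs of arrays 27 deviated together with a correlation over 0.1 (median 0.068, from -0.378 to 0.504). Pairs with different numbers were not set beside them, so pairing was not settled. With and without the replicate block 118 genes were called. Other pseudocounts, filters, scaling, probe set rules, variance models and a sex term gave 100 to 204.

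Leaving out 1 array gave 73 to 336 calls. The count moved by more than 1.5 times without wild type array 1 (73) or 2 (264), p107 and p130 double knockout array 5 (94) or 6 (93), Rb1 KO array 1 (92) or 2 (74), Rb1 and p107 double knockout array 5 (98), Rb1 and p130 double knockout array 1 (95), 5 (94) or 9 (336), and triple knockout array 2 (92), 4 (75) or 6 (87). Of the 45 named genes that were called, 25 kept the call in each of these fits and 17 with the array group block.

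With Rb1 and p130 absent the count of 3 was 8 with array weights and 17 with array group as a block, with or without sex, and 2 to 8 on leaving out 1 array. With p130 absent it was 1 with sex as a term, alone or with the block, and 1 to 4 on leaving out 1 array. With Rb1 absent it was 2 without the filter or with the mean of probe sets, and 1 to 3 on leaving out 1 array. The interactions had 0 calls by limma under each alternative run, against 325 and 381 genes at an unadjusted p under 0.05. Signs turned for 3 named genes that were not called. Rbl2 was at 0.086 with the array group block, 0.14 with sex added, 0.007 without the Rb1- and p130-deficient background and 0.04 with equal weights. Birc6 was at 0.091 and Bcl2l11 at -0.015 with the mean of probe sets. The cause of these changes was not tested.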

Other observations

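With array group as a block, 49 genes were called that were not called without it, and those named here were chosen after their values were seen. They were picked as examples and form no list or tested group. Among those higher without p107, the transcription factor gene Nfib had 0.61 ± 0.12 (limma, adjusted p = 0.00747), the imprinted gene Peg3 0.51 ± 0.10 (0.00747), the zinc finger gene Bnc2 0.85 ± 0.19 (0.0219), and Igfbp3, which binds insulin-like growth factors, 0.49 ± 0.12 (0.0459). Without the block they had 0.51, 0.34, 0.60 and 0.40 (adjusted p = 0.0694, 0.143, 0.0908 and 0.0626).

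Among those lower without p107 in the same fit, Tcp11l2 had -0.58 ± 0.09 (limma, adjusted p = 0.00061), Ube2o, the ubiquitin enzyme that clears proteins from reticulocytes, -0.54 ± 0.11 (0.00763), and Bcl2l1, which encodes the survival factor Bcl-xL and lies within 5 Mb of Rbl1 on chromosome 2, -0.35 ± 0.07 (0.0129). Without the block they had -0.27, -0.34 and -0.09 (0.251, 0.125 and 0.704). Array group was inferred from these same arrays and is unevenly spread over p107 status, and which of the fits is nearer to the effect of p107 loss was not tested.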
